A study of Homo sapiens with 8 samples.

Results

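Glycolysis and the response to low oxygen were followed in a module of 42 genes, taken by symbol from the table of read counts, which has 63677 rows. The 42 symbols matched 45 rows, because TPI1, PGK1 and ENO2 each had a further row with 0 counts in every library. Of the 42 genes, 40 passed the filter on low counts, as did 15646 genes in all. P4HA2, a subunit of the enzyme that hydroxylates collagen, was listed at 0 to 0.233 CPM (counts scaled to a common library size), and CA9, an acid-balancing carbonic anhydrase of the cell surface, at 0.0461 to 0.231 CPM, and neither passed it. The members fell into 3 transporters of glucose and lactate, 6 genes of upper glycolysis, 2 regulators of phosphofructokinase, 9 genes of lower glycolysis, 3 genes that set the fate of pyruvate, 1 glycogen gene, 5 oxygen sensing genes and 11 measured low oxygen targets.

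Glycolysis splits glucose into pyruvate, which is either reduced to lactate and exported or sent to the mitochondria through pyruvate dehydrogenase. Cells sense oxygen through the prolyl hydroxylases encoded by the EGLN genes, which mark the alpha subunit of hypoxia-inducible factor (HIF) for destruction by the ubiquitin ligase that contains VHL. When oxygen is low the alpha subunit persists, pairs with ARNT and raises the transcription of glucose transporters, many glycolytic enzymes, kinases that block pyruvate dehydrogenase, and genes of mitophagy and vessel growth. Leukaemic T cells use glycolysis heavily also in air, where MYC, a target of NOTCH signalling in these cells, is a further activator of glycolytic genes.

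The cells were Jurkat, an established line of T-cell acute lymphoblastic leukaemia (T-ALL), in which the transcription factor TAL1 carries the FKBP12 tag. All 4 groups, the controls included, carried this fusion and were kept for 24 hours in RPMI medium with 10% tetracycline-free serum. One group received the solvent DMSO, one dTAG-13, which recruits tagged proteins to a ubiquitin ligase for degradation, one GSI, the common abbreviation of a gamma-secretase inhibitor that stops the activating cleavage of NOTCH, and one both drugs, here called the combination. The sources used here give neither doses nor oxygen tension nor the density of the cultures. Each group had 2 strand-specific total RNA libraries, numbered 1 and 2 in the labels. The labels do not say what a number marks or whether libraries came from separate cultures, so p-values measure the spread between these libraries, which may be technical.

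Libraries held 17544319 to 22180009 counts, and 7.80 to 8.81% of them were mitochondrial. Replicates were not copies of each other, since their counts differed by 4.45 to 13.4 in chi-square per degree of freedom. The 12 T-lineage markers summed to 2827 to 3363 CPM, the 10 myeloid markers to 0.513 to 0.965 CPM, the 8 erythroid markers to 0.699 to 1.92 CPM and the 9 epithelial and stromal markers to 1.82 to 4.10 CPM. The sum of the 8 B-cell markers was 71.8 to 83.9 CPM in the 4 libraries without GSI and 101 to 122 CPM in the 4 with it, of which CD79A alone gave 60.3 to 70.7 and 88.6 to 109 CPM, while MS4A1, CD79B, PAX5 and CD22 were at or near 0. The NOTCH target DTX1 read 138 and 154 CPM with DMSO, 99.5 and 105 with dTAG-13, 18.3 and 18.9 with GSI and 19.7 and 17.0 with the combination, all 4 libraries with GSI below the 4 without it, and MYC read 349 and 340.1 CPM with DMSO, 348 and 352 with dTAG-13, 170.1 and 189.7 with GSI and 200.2 and 225 with the combination. TAL1 transcript read 154 and 166 CPM with DMSO, 145 and 147 with dTAG-13, 208 and 198 with GSI and 197 and 199 with the combination, which does not report on loss of the protein. ALDH1A2, a further gene chosen to check the treatments, read 140 and 129 CPM with DMSO and 75.5 and 76.3 with dTAG-13 (edgeR adjusted p = 0.0253). It read 189 and 159 CPM with GSI and 98.1 and 82.7 with the combination (edgeR adjusted p = 0.00397).

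The promoters of 5 members are printed because HIF and MYC are known to bind short core sequences in genes of this kind. These 5 include large and small differences between libraries numbered 1 and 2, but not the full range described below. ALDOC, EGLN1 and PFKFB4 were among the members that differed most between those libraries. BNIP3 differed less, by -0.32 on the log2 scale, and LDHA little, by -0.089. Each stretch is the 250 bases before the annotated start in RefSeq (GRCh38.p14), written 5′ to 3′ on the gene's strand. Capitals mark ACGTG or GCGTG, the core of the element that HIF binds, on either strand, so that their reverse forms CACGT and CACGC are in capitals too. The E-box bound by MYC with its partner MAX, CACGTG, holds the first of these cores on both strands. ALDOC lies at chr17:28576896-28577145, minus strand, BNIP3 at chr10:131981924-131982173, minus strand, EGLN1 at chr1:231422288-231422537, minus strand, PFKFB4 at chr3:48556804-48557053, minus strand, and LDHA at chr11:18394313-18394562, plus strand.
ALDOC: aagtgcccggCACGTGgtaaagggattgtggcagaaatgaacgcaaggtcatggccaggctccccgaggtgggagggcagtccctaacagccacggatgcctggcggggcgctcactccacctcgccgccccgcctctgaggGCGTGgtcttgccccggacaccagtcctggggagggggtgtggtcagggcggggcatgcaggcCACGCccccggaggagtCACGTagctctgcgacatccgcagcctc
BNIP3: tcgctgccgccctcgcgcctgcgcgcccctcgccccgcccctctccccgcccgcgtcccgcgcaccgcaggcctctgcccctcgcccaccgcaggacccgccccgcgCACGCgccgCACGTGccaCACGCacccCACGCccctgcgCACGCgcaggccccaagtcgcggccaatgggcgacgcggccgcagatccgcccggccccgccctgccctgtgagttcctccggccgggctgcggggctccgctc
EGLN1: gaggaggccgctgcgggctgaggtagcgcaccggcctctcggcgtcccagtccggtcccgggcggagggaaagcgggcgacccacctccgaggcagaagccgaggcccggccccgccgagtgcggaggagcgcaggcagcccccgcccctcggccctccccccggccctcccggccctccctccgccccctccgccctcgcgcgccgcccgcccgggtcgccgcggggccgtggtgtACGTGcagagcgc
PFKFB4: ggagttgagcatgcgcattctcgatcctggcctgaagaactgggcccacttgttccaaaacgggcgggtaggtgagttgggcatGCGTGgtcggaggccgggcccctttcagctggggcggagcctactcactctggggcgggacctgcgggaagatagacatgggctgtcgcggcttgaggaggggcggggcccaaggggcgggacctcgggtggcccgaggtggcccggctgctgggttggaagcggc
LDHA: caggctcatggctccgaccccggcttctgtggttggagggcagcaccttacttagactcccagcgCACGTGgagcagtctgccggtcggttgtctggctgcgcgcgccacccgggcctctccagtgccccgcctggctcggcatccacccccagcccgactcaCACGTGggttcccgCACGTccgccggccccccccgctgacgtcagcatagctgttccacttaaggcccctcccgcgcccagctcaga
The stretch of LDHA holds ACGTG 5 times, counting both strands, with 2 CACGTG among them, and that of ALDOC 3 times with 1 CACGTG. BNIP3 has a cluster of 4 GCGTG around 1 CACGTG, EGLN1 has 1 ACGTG, 13 bases from the start, and PFKFB4 has 1 GCGTG and no ACGTG. All 5 printed stretches thus hold a core, which is not so for every member. SLC16A3 (-0.38) and PDK1 (-0.36) differed more between the numbers than BNIP3, and their promoters, not printed, hold neither core. The 5 stretches therefore do not show whether a core goes with the difference.

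RefSeq held windows of 300 bases (250 before and 50 after the start) for 37 of the 42 members. On both strands, ACGTG was found in 17 of these 37 windows (45.95%) and in 21.41% of the 35116 promoter windows of the table. GCGTG was found in 18 (48.65%, all windows 36.54%), either core in 27 (72.97%, all windows 48.45%) and CACGTG, which overlaps ACGTG, in 5 (13.51%, all windows 7.256%). Among 24 windows of other known low oxygen targets, ACGTG was present in 14 (58.33%) and CACGTG in 9 (37.5%). ACGTG outside CACGTG was present in 8 of the 24 (33.33%), in 15 of the 37 member windows (40.54%) and in 15.47% of all windows. The 35116 windows were not limited to genes measured here or matched to the members in base composition. Their shares therefore do not come from a set like the members. These matches describe the letters of the windows, not sites of binding.

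These T-ALL cells expressed 1 isozyme far above its relatives at several steps of glycolysis. Levels between genes were compared as CPM per kilobase of annotated exon, averaged over all 8 libraries with their SD. Among the phosphofructokinases, which catalyse the committed step, PFKP stood at 78.2 ± 3.06, PFKL at 14.0 ± 1.20 and PFKM, the muscle form, at 0.624 ± 0.104. ALDOA (585 ± 33.6) exceeded ALDOC (85.5 ± 15.4) among the aldolases, and ENO1 (629 ± 59.6) exceeded ENO2 (54.6 ± 4.56) among the enolases. In each of these pairs the ranges over the 8 libraries did not meet. Per kilobase of the longest coding transcript PFKP and PFKL lay less far apart, at 137 and 43.0. The most abundant member was GAPDH at 1901 ± 118, followed by ENO1, ALDOA and TPI1 (412 ± 25.6), and then LDHA (381 ± 28.7). Per kilobase of the longest coding transcript the order after ALDOA turned, with LDHA at 978 and PKM at 826 above TPI1 at 631.

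Some other families were more even, while the glucose transporters and the HIF alpha subunits were as uneven as those above. HK2, the inducible hexokinase, stood at 20.7 ± 2.98 and HK1, the constitutive one, at 14.5 ± 1.39 CPM per kilobase, with overlapping ranges, and their order turned with the length used: per kilobase of the longest coding transcript HK2 read 21.7 and HK1 22.8. LDHA, which favours lactate formation, and LDHB (323 ± 31.7), which favours the reverse, also overlapped, although their means lay further apart per kilobase of the longest coding transcript, at 978 and 627. The bifunctional enzymes PFKFB3 (14.0 ± 2.05) and PFKFB4 (11.3 ± 2.40), which set the level of an activator of phosphofructokinase, overlapped as well. SLC2A1, the widespread glucose transporter, stood above SLC2A3, the high-affinity form of neurons and lymphoid cells, at 39.6 ± 3.79 against 5.23 ± 1.19. SLC16A3, which exports lactate, stood at 5.26 ± 1.02, below SLC16A1 at 23.5 ± 1.94. Of the kinases that block pyruvate dehydrogenase, PDK1 (4.21 ± 0.699), PDK2 (4.04 ± 0.255) and PDK3 (3.23 ± 0.296) lay within a narrow range and PDK4 was listed at 0, but per kilobase of the longest coding transcript the order was the opposite, with PDK3 at 8.32, PDK2 at 6.44 and PDK1 at 4.41. HIF1A was the main alpha subunit at 20.3 ± 1.61 against 1.52 ± 0.571 for EPAS1, and EGLN1 the main prolyl hydroxylase at 10.1 ± 1.84 against 2.68 ± 0.217 for EGLN2 and 0.574 ± 0.142 for EGLN3.

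**Figure D1:**
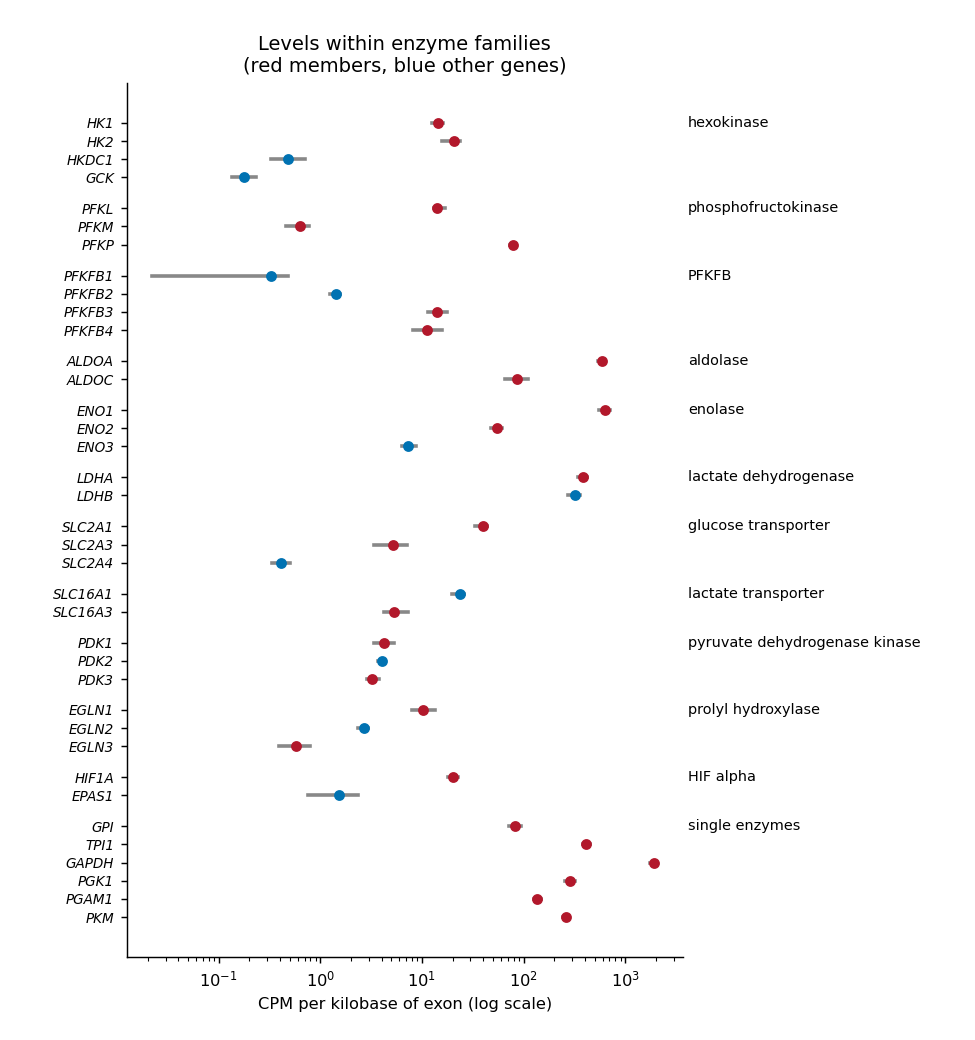
Level of each enzyme, transporter or oxygen sensing gene as CPM per kilobase of annotated exon (log axis), grouped by family. Points are means over the 8 libraries and grey bars run from the lowest to the highest library; members are red and other genes blue. PFKP, ALDOA and ENO1 lie clear of their relatives, while the hexokinases, lactate dehydrogenases and PFKFB3 with PFKFB4 overlap, and genes at or near 0 in all libraries are not drawn.

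None of the 40 measured members passed the edgeR test (adjusted p under 0.05 over all genes) in any comparison of single groups. This fit had no term for the replicate number. With such a term edgeR called NDRG1 for GSI against DMSO (adjusted p = 0.0451) and SLC2A3 for the combination against dTAG-13 (adjusted p = 0.0193). The share of all genes called in that fit is not given here, so these calls do not set the members apart from other genes. Other settings that changed a call are given with the alternatives at the end. The question of these comparisons was what loss of TAL1, inhibition of gamma-secretase, or both did to the cells after 24 hours. Members called were 0 for dTAG-13 against DMSO (0.0192% of all genes tested), 0 for GSI against DMSO (1.74%) and 0 for the combination against DMSO (1.31%). Likewise 0 were called for the combination against dTAG-13 (1.21%), 0 for the combination against GSI (0.0575%) and 0 for the interaction of the drugs, which asks whether their joint effect equals their added effects (0%). The same edgeR test at an unadjusted p under 0.05 found 1 member for dTAG-13 (3.84% of all genes), 2 for GSI (14%), 1 for the combination (12.4%), 3 for the combination against dTAG-13 (13%), 1 for the combination against GSI (4.14%) and 0 for the interaction (1.66%). DESeq2 also called 0 in each, against 0.174%, 2.34%, 1.63%, 1.78%, 0.0658% and 0% of the genes to which it gave an adjusted p, in the same order. The authors' deposited tables, which hold the 3 comparisons with DMSO, list 0 members under an adjusted p of 0.05. In RNA from whole cultures, fewer cells of a kind and less transcript per cell cannot be told apart.

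SLC2A3, the high-affinity glucose transporter, was the member with the smallest p in the averaged GSI comparison described below. It read 31.2 and 30.6 CPM with DMSO, 26.5 and 20.9 with dTAG-13, 43.8 and 37.7 with GSI and 38.2 and 28.6 with the combination, the library numbered 1 first in each pair here and below. Both libraries with GSI alone were above all 4 libraries without GSI and both with dTAG-13 alone were below both with DMSO, while the combination straddled DMSO. Group means were 30.9 ± 0.383 CPM with DMSO, 23.7 ± 4.0 with dTAG-13, 40.7 ± 4.36 with GSI and 33.4 ± 6.78 with the combination (SD, n = 2 libraries each). On the log2 scale of the edgeR fit the difference was 0.40 (SE 0.15, adjusted p = 0.231) for GSI against DMSO, -0.38 (SE 0.15, adjusted p = 1) for dTAG-13 against DMSO and 0.49 (SE 0.15, adjusted p = 0.17) for GSI added to dTAG-13.

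Averaged over the cells with and without dTAG-13, a comparison added after the data were seen, GSI raised SLC2A3 by 0.45 (SE 0.10, adjusted p = 0.0242), the 1 member called of 40 (6.94% of all genes). DESeq2 called it too (adjusted p = 0.00481), as 1 member of 40 (6.87% of the genes given an adjusted p). The call was lost without DMSO replicate 1, DMSO replicate 2, dTAG-13 replicate 2, GSI replicate 1 or combination replicate 1, with an adjusted p of 0.0615 to 0.12 and a log2 difference of 0.33 to 0.45. The average effect of dTAG-13 on SLC2A3 was -0.33 (SE 0.10, adjusted p = 0.438), and 0 of 40 members were called for it (0.499% of all genes) by edgeR, with 3 members at an unadjusted p under 0.05 (6.08%), and 0 by DESeq2 (0.667%). For dTAG-13 taken this way 0 members had all 4 libraries above (1.07% of all genes) or below (1.55%) the other 4. The other transporters did not pass the test in these comparisons: the average effect of GSI was -0.097 (SE 0.086) on SLC2A1 and 0.25 (SE 0.14) on SLC16A3.

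In the averaged GSI comparison the oxygen sensing members HIF1A and VHL gave the next smallest p-values, in opposite directions, without passing the edgeR test. Both passed it with a term for the replicate number (adjusted p = 0.034 and 0.0319). HIF1A, the alpha subunit itself, read 102 and 101 CPM with DMSO, 95.1 and 92.9 with dTAG-13, 118 and 110.0 with GSI and 109.8 and 108 with the combination. All 4 libraries with GSI were above the 4 without it, the 1 member of 40 higher in this way (7% of all genes), and the averaged difference was 0.19 (SE 0.055, adjusted p = 0.0599) by edgeR. VHL, whose product targets that subunit for destruction, read 91.7 and 102 CPM with DMSO, 93.5 and 86.9 with dTAG-13, 85.4 and 69.7 with GSI and 83.4 and 79.3 with the combination. Its 4 libraries with GSI were below the 4 without it, the 1 member lower in this way (8.22% of all genes), and the averaged difference was -0.23 (SE 0.073, adjusted p = 0.079). The difference of VHL for GSI against DMSO alone was -0.32 (SE 0.10, adjusted p = 0.171), with the smallest p of a member in that comparison. It passed the edgeR test there without the filter on low counts (adjusted p = 0.0433) and with an offset for GC content and transcript length (adjusted p = 0.0459). Shares of all genes called with these settings or with the replicate term are not given, so these calls do not set HIF1A or VHL apart. ARNT, the partner of HIF1A, read 59.0 and 61.5 CPM with DMSO, 63.1 and 59.3 with dTAG-13, 70.3 and 61.4 with GSI and 67.1 and 63.3 with the combination, overlapping between treatments, with an averaged GSI effect of 0.11 (SE 0.065, adjusted p = 0.357). EGLN3 was scarce, at 2.89 to 5.82 CPM, and its average effect of dTAG-13 was 0.47 (SE 0.17, adjusted p = 0.597).

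Among upper glycolysis and its regulators, HK2, which traps glucose in the cell, read 139 and 129 CPM with DMSO, 145 and 125 with dTAG-13, 129.8 and 94.5 with GSI and 140.0 and 102 with the combination. The GSI library numbered 1 lay between the DMSO libraries, the other lay below both, and the difference was -0.26 (SE 0.16, adjusted p = 0.509). PFKFB4 read 71.0 and 56.6 CPM with DMSO, 80.5 and 65.3 with dTAG-13, 74.8 and 59.5 with GSI and 95.8 and 50.2 with the combination, so that each treatment held 1 high and 1 low library, and the difference for dTAG-13 against DMSO was 0.19 (SE 0.23, adjusted p = 1). Of the 9 genes of lower glycolysis, 8 had a value below 0 for GSI against DMSO, between -0.19 for ENO1 and -0.015 for PGK1, and ALDOC had 0.065, with 0 at an unadjusted p under 0.05. LDHA, the last step to lactate, had an average GSI effect of -0.15 (SE 0.073, adjusted p = 0.27). Groups did not overlap for 4 members higher with GSI than with DMSO (22.6% of all genes) and 5 lower (20.9%), shares of 40 members below those backgrounds.

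The low oxygen targets gave no call with either drug in the fit without the replicate number. ADM, a vasodilator peptide, read 21.5 and 15.5 CPM with DMSO, 31.7 and 23.5 with dTAG-13, 16 and 13.8 with GSI and 29.6 and 11.5 with the combination. Both dTAG-13 libraries were above both DMSO libraries, the combination held both a high and the lowest value, and the difference for dTAG-13 against DMSO was 0.59 (SE 0.31, adjusted p = 1) and for GSI against DMSO -0.31 (SE 0.33, adjusted p = 0.751). Both values moved with single libraries: the first was 0.83 without DMSO replicate 1 and 0.34 without dTAG-13 replicate 1, and the second -0.061 without DMSO replicate 1 and -0.53 without DMSO replicate 2. NDRG1, a stress-induced gene of differentiation, read 76.3 and 58.0 CPM with DMSO, 77.1 and 57.7 with dTAG-13, 93.8 and 78.5 with GSI and 105 and 65.1 with the combination, with both GSI libraries above both DMSO libraries and a difference of 0.36 (SE 0.20, adjusted p = 0.467). BNIP3L and BNIP3 encode receptors that mark mitochondria for autophagy. BNIP3L read 147 and 126 CPM with DMSO, 154 and 125 with dTAG-13, 181 and 140.2 with GSI and 192 and 120.1 with the combination, with GSI and DMSO overlapping and a difference of 0.23 (SE 0.19, adjusted p = 0.636). BNIP3 read 189 and 153 CPM with DMSO, 209 and 177 with dTAG-13, 185 and 168 with GSI and 219 and 146 with the combination, with dTAG-13 and DMSO overlapping and a difference of 0.18 (SE 0.16, adjusted p = 1).

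DDIT4, an inhibitor of mTOR signalling, read 80.1 and 66.6 CPM with DMSO, 89.6 and 79.7 with dTAG-13, 69.2 and 70.5 with GSI and 99.6 and 65.5 with the combination, and its difference for dTAG-13 against DMSO was 0.21 (SE 0.16, adjusted p = 1). FAM162A, a mitochondrial protein linked to cell death in low oxygen, read 154 and 128 CPM with DMSO, 162 and 159.9 with dTAG-13, 133 and 137 with GSI and 142 and 126 with the combination. Both of its dTAG-13 libraries were above both DMSO libraries, by a narrow margin, and the difference was 0.20 (SE 0.097, adjusted p = 1). For dTAG-13 against DMSO, 33 of 40 members had a value above 0 and 7 below, with a median of 0.038, against 48.1% of all genes below 0 and a median of 0.0058. Groups did not overlap for 4 members higher with dTAG-13 (17.7% of all genes) and 2 lower (17.6%). For GSI against DMSO the members divided 19 above and 21 below 0 (all genes 48.6% below), and for the combination against DMSO 26 above and 14 below (all genes 49.5% below). The 3 comparisons share the DMSO libraries.

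**Figure D2:**
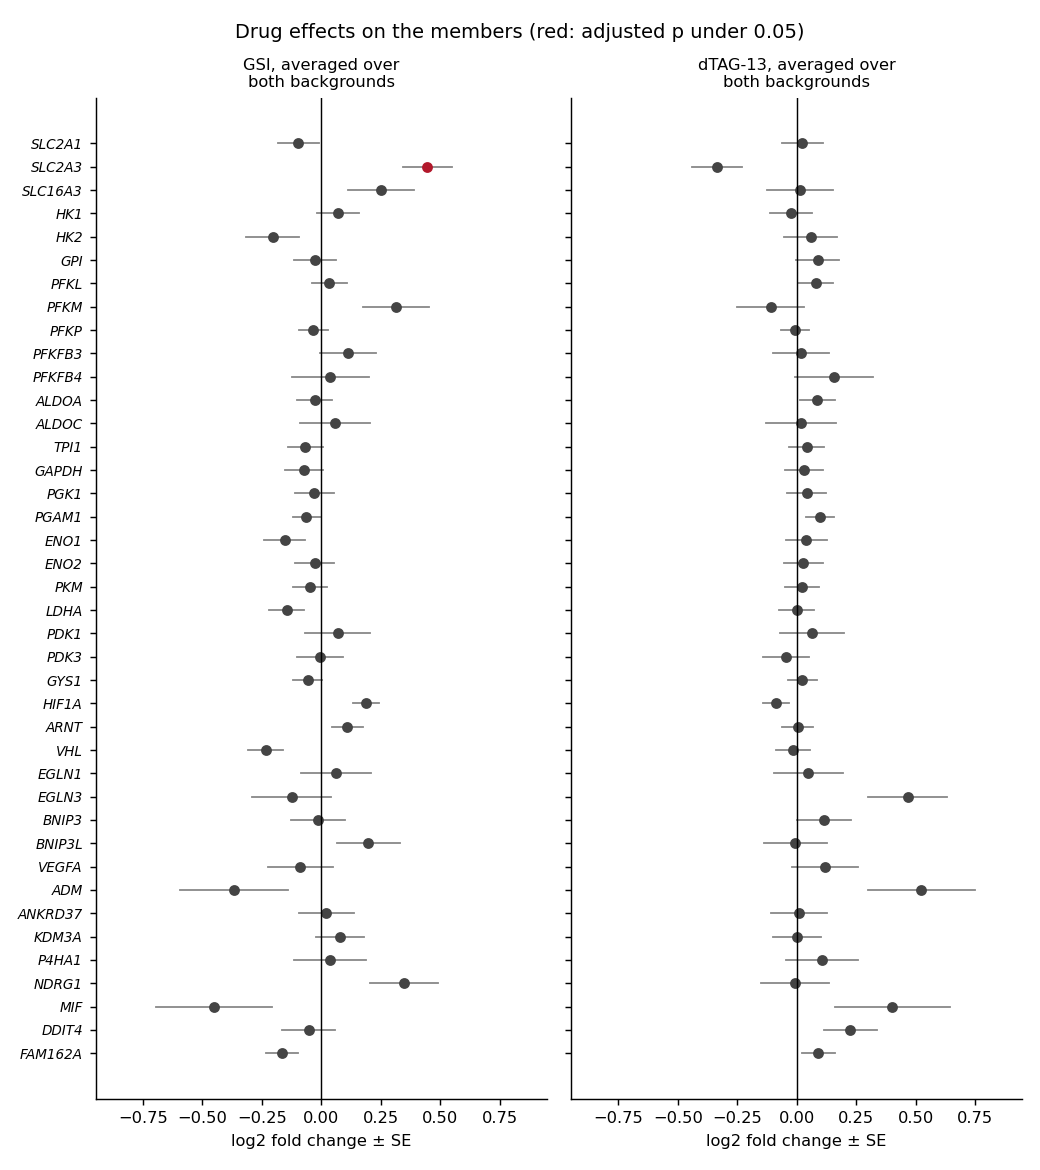
log2 fold change (edgeR) of the 40 measured members for GSI, left, and dTAG-13, right, each averaged over cells with and without the other drug, with bars of 1 SE. SLC2A3 with GSI is the only point past an adjusted p of 0.05 and is drawn in red, while its value with dTAG-13 lies on the other side of 0.

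Within each treatment most of the members were lower in the library numbered 2 than in the library numbered 1. Across the 4 treatments 39 of 40 members had a lower fitted value in libraries numbered 2, against 50.3% of all genes. PFKM, with 0.037 (SE 0.14), was the exception. The median difference was -0.21 on the log2 scale (all genes -0.0012). Taking treatments one by one, 34 of 40 were lower with DMSO, 33 with dTAG-13, 29 with GSI and 38 with the combination, with medians of -0.18, -0.16, -0.14 and -0.37. Of the 9 genes of lower glycolysis only 3 were lower with GSI, with a median of 0.018. In all 4 treatments 21 members were lower in the library numbered 2 (8.54% of all genes), and for 15 members all 4 libraries numbered 2 were below all 4 numbered 1 (1.74%).

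After adjustment over all genes, edgeR called 0 members for replicate number 2 against 1, as it called 0% of all genes. At an unadjusted p under 0.05 it found 24 members lower (5.36% of all genes) and 0 higher, and the smallest adjusted p of a member was 0.0675. DESeq2 called 8 members lower (0.296% of the genes to which it gave an adjusted p), which were SLC16A3, HK2, PFKFB4, ALDOC, EGLN1, BNIP3, BNIP3L and NDRG1. Without the filter on low counts edgeR called 17 members lower (0.382% of all genes). Without both DMSO libraries edgeR called 24 members lower (6.89% of all genes), and 38 of 40 members had a value below 0. That fit has fewer residual degrees of freedom than the fit of all libraries. Leaving out either DMSO library alone is in effect the same test, since a library alone in its treatment adds nothing to the difference between numbers. Without the combination libraries the smallest adjusted p of a member was 0.933, and 39 of 40 were below 0.

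**Figure D3:**
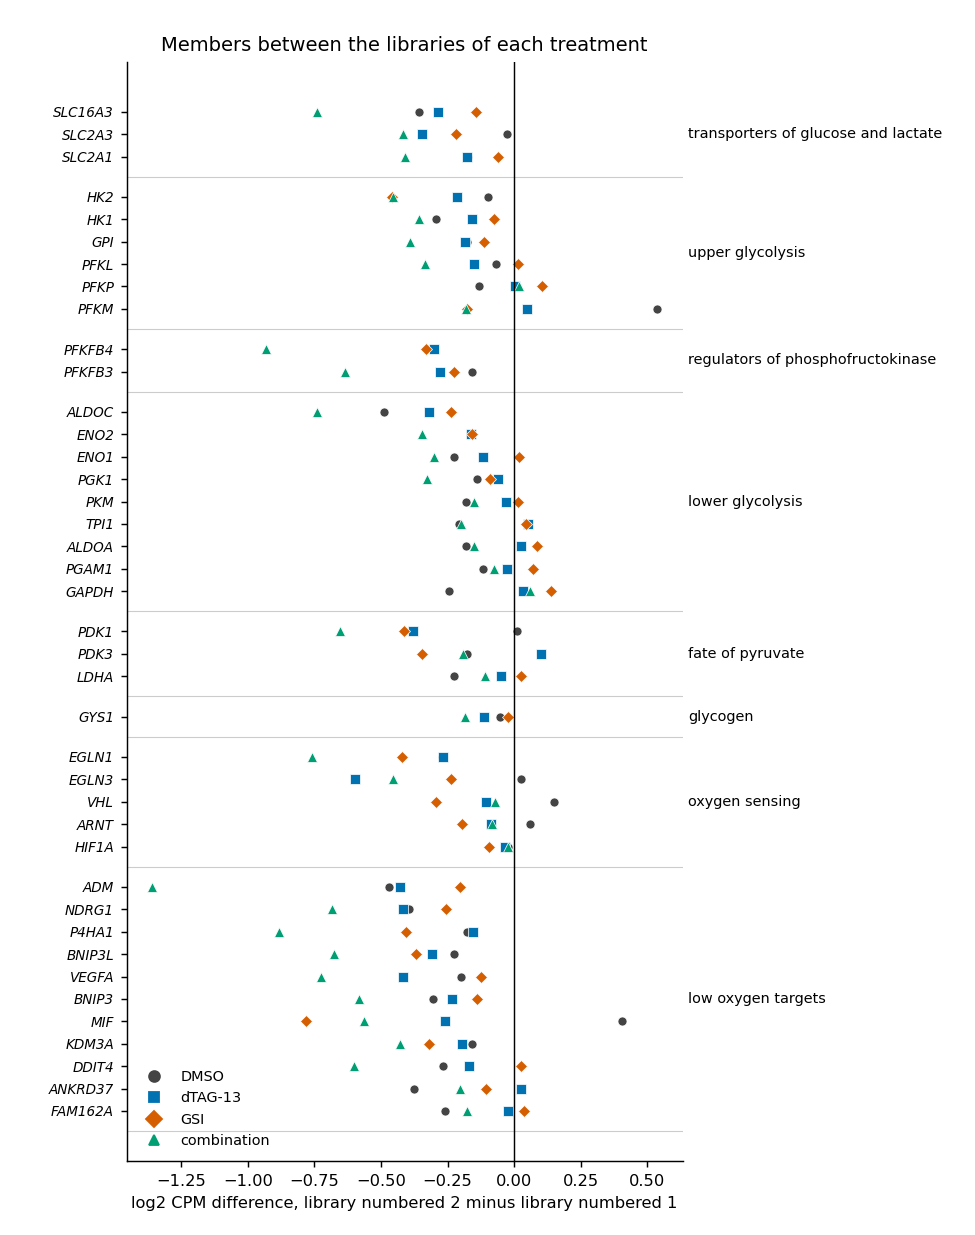
Difference in log2 CPM between the library numbered 2 and the library numbered 1 of each treatment, for the 40 measured members ordered by role. Each symbol is 1 treatment and the vertical line marks no difference. Most symbols lie left of the line, those of the combination mostly farthest, and those of PFKP, GAPDH, PGAM1 and HIF1A lie on both sides of it or near it.

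Among the low oxygen targets, ADM was the member with the largest difference, -0.62 (SE 0.13, unadjusted p = 3.04e-04, adjusted p = 0.121) in the edgeR fit, from a mean of 24.7 ± 7.29 CPM in libraries numbered 1 to 16.1 ± 5.24 in those numbered 2 (SD, n = 4 each). Its per-library values, given above, were lower in the library numbered 2 of each treatment, but the sets of 4 overlapped. NDRG1 had the smallest p of all genes tested, at -0.44 (SE 0.068, unadjusted p = 7.73e-06, adjusted p = 0.0675), with means of 88.0 ± 13.7 and 64.8 ± 9.74 CPM (SD, n = 4 each, edgeR). BNIP3L, with -0.40 (SE 0.068, unadjusted p = 2.59e-05, adjusted p = 0.0675), and BNIP3, with -0.32 (SE 0.067, unadjusted p = 2.34e-04, adjusted p = 0.115), did not overlap between the numbers. P4HA1, a subunit of collagen prolyl hydroxylase, read 85.1 and 75.2 CPM with DMSO, 89.2 and 80.0 with dTAG-13, 91.9 and 69.4 with GSI and 115 and 62.2 with the combination. Each library numbered 2 was below every library numbered 1 for P4HA1, and the difference was -0.41 (SE 0.093, unadjusted p = 5.24e-04, adjusted p = 0.134).

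Across the 11 measured low oxygen targets all 11 had a value below 0 (50.3% of all genes) and 8 of these had an unadjusted p under 0.05 (5.36% of all genes were lower at that level). VEGFA, the vessel growth factor, had -0.37 (SE 0.083, unadjusted p = 4.47e-04, adjusted p = 0.131), and KDM3A, a histone demethylase, -0.28 (SE 0.062, unadjusted p = 3.76e-04, adjusted p = 0.121). DDIT4 had -0.25 (SE 0.08, unadjusted p = 0.00631, adjusted p = 0.278). The 3 others, FAM162A, ANKRD37 and MIF, had values of -0.10, -0.16 and -0.30 with unadjusted p-values of 0.101, 0.164 and 0.225. MIF, a cytokine, was counted at only 0.723 to 2.03 CPM.

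Transporters and the entry to glycolysis differed in the same direction. All 3 transporters were lower in the library numbered 2 of each of the 4 treatments, and all had an unadjusted p under 0.05: SLC16A3 -0.38 (SE 0.082, unadjusted p = 2.63e-04, adjusted p = 0.119), SLC2A3 -0.25 and SLC2A1 -0.20. Both hexokinases and GPI, which converts glucose phosphate to its fructose isomer, were lower in each treatment without overlap, at -0.31 (SE 0.066) for HK2, -0.22 (SE 0.061) for HK1 and -0.22 (SE 0.065) for GPI. PFKL had -0.14 and PFKP, the dominant phosphofructokinase, -0.0021 (SE 0.059). The regulators PFKFB4, at -0.47 (SE 0.088, unadjusted p = 7.36e-05, adjusted p = 0.082), and PFKFB3, at -0.32 (SE 0.072, unadjusted p = 3.52e-04, adjusted p = 0.121), did not overlap between the numbers. For PFKFB4 the pair with the combination, 95.8 and 50.2 CPM, was the most unequal.

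Lower glycolysis divided by gene. ALDOC, the aldolase of brain, read 284 and 202 CPM with DMSO, 275 and 220.4 with dTAG-13, 275 and 233 with GSI and 320.3 and 192 with the combination. Every library numbered 2 was below every library numbered 1, and the difference was -0.45 (SE 0.072, unadjusted p = 1.32e-05, adjusted p = 0.0675). ENO2, the enolase of neurons, had -0.21 (SE 0.057, unadjusted p = 0.00201) and PGK1, which makes the first ATP of the pathway, -0.16 (SE 0.067, unadjusted p = 0.0344), both without overlap. ENO1 had -0.16 (unadjusted p = 0.0454), its libraries overlapping. The other abundant enzymes were nearly level, at -0.0044 for GAPDH, -0.039 for PGAM1, -0.054 for ALDOA, -0.077 for TPI1 and -0.086 for PKM, with unadjusted p-values of 0.217 to 0.956. LDHA had -0.089 (SE 0.068). PDK1, which holds pyruvate out of the mitochondria, had -0.36 (SE 0.083, unadjusted p = 5.37e-04, adjusted p = 0.134), with its DMSO libraries level (59.2 and 59.7 CPM), PDK3 had -0.16 and glycogen synthase GYS1 -0.094, neither at an unadjusted p under 0.05.

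Among oxygen sensing members the 2 prolyl hydroxylases had an unadjusted p under 0.05 between the numbers, and HIF1A, ARNT and VHL did not. EGLN1, itself a known target of HIF, read 78.8 and 65.2 CPM with DMSO, 78.7 and 65.4 with dTAG-13, 83.3 and 62.1 with GSI and 97.7 and 57.6 with the combination. Each library numbered 2 was below every library numbered 1, at -0.43 (SE 0.075, unadjusted p = 3.12e-05, adjusted p = 0.0675). EGLN3 had -0.34 (SE 0.14, unadjusted p = 0.0263). HIF1A had -0.044 (SE 0.054), ARNT -0.078 (SE 0.061) and VHL -0.08 (SE 0.067). HIF is controlled mainly through the stability of its alpha subunit, which transcript levels do not measure.

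**Figure D4:**
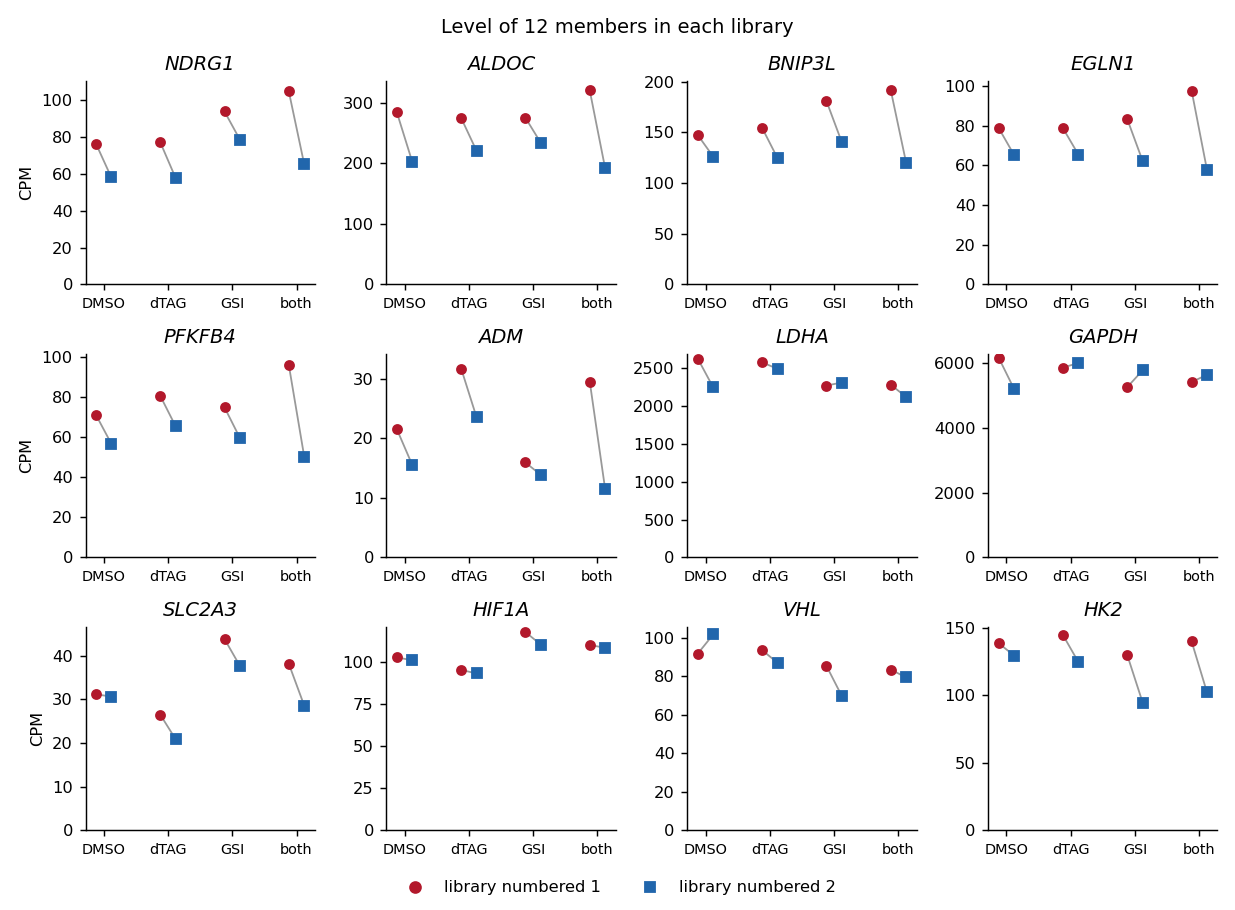
CPM of 12 members in each of the 8 libraries, with the library numbered 1 (red circle) and the library numbered 2 (blue square) of each treatment joined by a line, all axes starting at 0. The first 6 panels show members that were lower in the library numbered 2 of every treatment, with the widest gap in the combination (both). The LDHA and GAPDH pairs do not have the same order in every treatment, and the panels of SLC2A3, HIF1A and VHL show the libraries with GSI beside those without it.

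The genes around the module were compared between the numbers in the same fit, in which edgeR called 0 of them. Of 32 other known low oxygen targets 23 were measured, and 22 of these 23 had a value below 0 for number 2 against 1 (50.3% of all genes). At an unadjusted p under 0.05 by edgeR 14 were lower (5.36% of all genes). In all 4 treatments 15 were lower (8.54%), and 10 were lower without overlap (1.74%). Among them STC2, a secreted glycoprotein, had -0.47 (SE 0.082, unadjusted p = 3.23e-05, adjusted p = 0.0675), and PPFIA4 had -0.55 (SE 0.12, unadjusted p = 2.28e-04, adjusted p = 0.115). AK4, an adenylate kinase of mitochondria, had -0.52 (SE 0.11, unadjusted p = 2.30e-04, adjusted p = 0.115). The same shares of all genes apply to the lists that follow, with 12.8% of all genes at an unadjusted p under 0.05 in either direction by edgeR. Of 12 measured other glycolysis genes 7 were lower, 1 at an unadjusted p under 0.05. Pentose phosphate genes, which branch from glucose phosphate, went the other way in 6 of 7, with TALDO1 at 0.19 (unadjusted p = 0.00762) and RPIA at 0.13 (unadjusted p = 0.0412). Of 10 measured genes of pyruvate dehydrogenase and the pyruvate carrier 2 were lower, 0 at an unadjusted p under 0.05, and 8 higher, of which PDHB, a subunit of pyruvate dehydrogenase, had 0.14 (unadjusted p = 0.0442). Of 10 other oxygen sensing genes 4 were lower, 0 at an unadjusted p under 0.05, and 6 higher, of which TCEB1 and TCEB2, the elongin subunits of the VHL ligase, had 0.22 (unadjusted p = 0.0175) and 0.22 (unadjusted p = 0.0438).

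Ranked by edgeR p for this difference over all 15646 genes, 4 of the first 10 and 9 of the first 40 were members, which make up 0.256% of the genes tested, and a further 1 and 6 were other low oxygen targets. All 10 and 36 of the 40 were lower in libraries numbered 2. The members and lists were chosen with earlier results of these data known, so these counts describe the module and do not test it. Members with ACGTG in the promoter window had differences from -0.45 to -0.0044 with a median of -0.21 (16 members), and those without it from -0.62 to 0.037 with a median of -0.16 (19 members). Their ranges overlapped almost fully, with ADM, PFKFB4 and PDK1, which hold no ACGTG there, among the lowest. ADM and PFKFB4 each hold 1 GCGTG, the other form of the core, while PDK1 holds neither. The split by ACGTG therefore does not part members with a core from those without. It also leaves out the measured members that had no window. These were NDRG1 (-0.44), BNIP3L (-0.40), VEGFA (-0.37), SLC2A3 (-0.25) and VHL (-0.08). The 5 members that hold CACGTG ran from ALDOC at -0.45 and BNIP3 at -0.32 through ANKRD37 at -0.16 to LDHA at -0.089 and GAPDH at -0.0044.

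**Figure D5:**
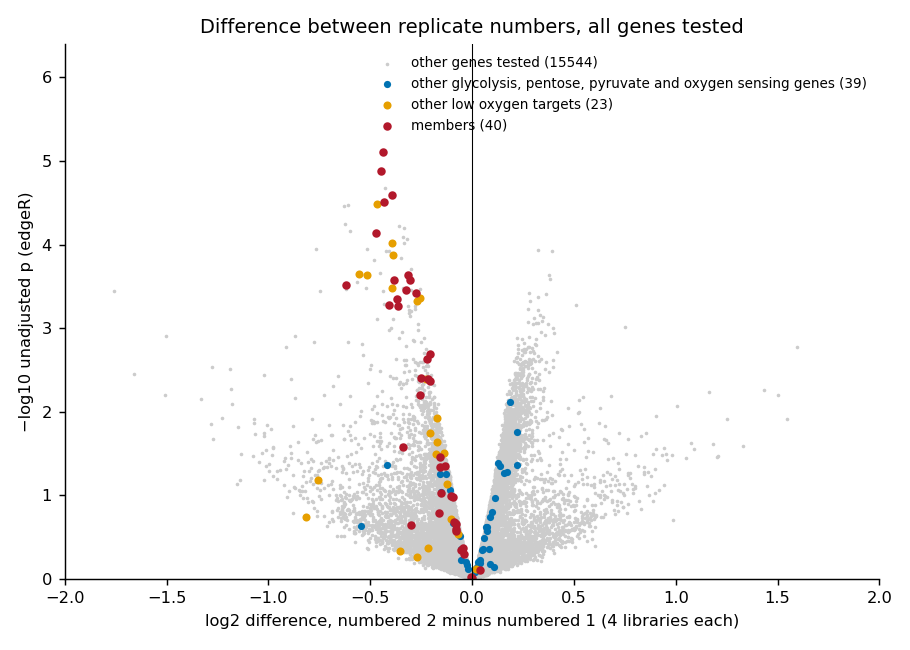
For every gene tested, the log2 difference of the 4 libraries numbered 2 from the 4 numbered 1 against -log10 of the unadjusted edgeR p. Members (red) and other low oxygen targets (orange) lie mostly left of 0 and give 9 and 6 of the 40 smallest p-values, among many genes of neither kind (grey), while pentose phosphate, pyruvate and other sensing genes (blue) lie on both sides; 2 genes fall outside the horizontal axis.

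Other properties of the libraries moved with the number. Ribosomal protein genes took 5.80% and 5.18% of counts with DMSO, 5.38% and 6.06% with dTAG-13, 4.35% and 5.55% with GSI and 4.81% and 5.44% with the combination, higher in the library numbered 2 of all treatments except DMSO. Across 15173 genes the difference between numbers had a rank correlation of 0.142 with GC content and -0.294 with transcript length, within the same 8 libraries. With an offset for both, added after the data were seen, 39 of 40 members were still below 0, 26 at an unadjusted p under 0.05 (4.56% of all genes lower at that level) and 6 called by edgeR (0.173%). The part of ribosomal protein share in the difference was not tested.

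With drugs, the surrounding genes gave a few calls by edgeR. EPAS1, the second HIF alpha subunit, read 8.89 and 9.94 CPM with DMSO, 7.37 and 5.50 with dTAG-13, 16.8 and 17.2 with GSI and 11.7 and 11.3 with the combination, and rose with GSI against DMSO (0.85 (SE 0.14, adjusted p = 0.00967)) and with GSI added to dTAG-13 (0.84 (SE 0.15, adjusted p = 0.0183)). Every library with GSI was above every library without it. Averaged over cells with and without GSI, the difference of EPAS1 with dTAG-13 was -0.56 (SE 0.10, adjusted p = 0.0361). LDHB, the partner of LDHA, fell with GSI on average (-0.24 (SE 0.066, adjusted p = 0.0461)), as did DLAT, a core subunit of pyruvate dehydrogenase (-0.25 (SE 0.064, adjusted p = 0.0336)), MXI1, an antagonist of MYC (-0.36 (SE 0.081, adjusted p = 0.0197)), and TFRC, the transferrin receptor (-0.29 (SE 0.071, adjusted p = 0.0279)). Among the measured genes of these lists, GSI on average raised 1 of 10 other oxygen sensing genes, lowered 1 of 12 other glycolysis genes, 1 of 10 pyruvate genes and 2 of 23 other low oxygen targets, and called 0 of 7 pentose phosphate genes (all genes 6.94%).

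Shared sequence limits some members. ALDOA shares 42.3% of its annotated exon bases with AC093512.2 on the same strand, and MIF shares 32.2% with AP000350.4 on the same strand and 61.9% with its antisense gene, so their counts are uncertain. DDIT4 (41.2%) and ANKRD37 (35.2%) overlap a gene on the opposite strand, and whether the counting used strand is not stated in the sources used here. Named pseudogenes of GAPDH, of which 59 were listed, summed to 7.26 to 9.26 CPM, 0.138% of GAPDH itself, and for TPI1, the highest share examined, they reached 0.381%.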

How the data were processed

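Total RNA of 8 libraries, 2 for each of 4 treatments, had been sequenced as paired 100-base reads. STAR 2.5.2a, featureCounts, DESeq2 1.12.4 and hg19 are named in the submitters' processing notes, and annotation and strand setting are not stated in the sources used here. The authors deposited raw counts per gene and library. Their deposited tables of each treatment against DMSO hold log2 fold changes with errors, a score (fold change over error) and each p-value, raw and adjusted. Only their adjusted p-values are quoted.

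Genes passing edgeR's filterByExpr were scaled by TMM and fitted in 1 model of the 4 groups (edgeR 4.0.16, R 4.3.3, robust quasi-likelihood F-test, 2-sided, 4 residual degrees of freedom). Replicate number 2 against 1 used treatment and number as terms (3 residual degrees of freedom). Benjamini-Hochberg adjustment ran over the 15646 genes that passed, with a threshold of 0.05, and scripts were tested on simulated data. CPM use the TMM-scaled library size, with a prior count of 2 for log2 CPM. Exon lengths came from GENCODE 29 (GRCh38), matched by gene, and promoters from RefSeq. Alternatives were DESeq2 1.42.0, its size factors, no filter, a replicate block, the compared libraries alone and leaving out libraries; a GC and length offset and the averaged drug effects were added after seeing the data. Full values are given for called members, the 6 largest differences (mean of at least 5 CPM) for dTAG-13, GSI and number, and HIF1A, ARNT, VHL and EGLN1; other genes named were chosen with values in view. The members, lists and comparisons were chosen with earlier results of these data known.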

Additional observations from a re-analysis of the deposited data

How the results depend on the processing

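Counts of members called stayed as reported under 81 combinations of comparison and alternative and differed under 24. Named log2 differences kept direction and side of the threshold in 303 cases, passed it in 47, lost it in 5 and reversed in 3. Replicate numbers were not taken to pair the samples, since the correlation of their deviations across genes was not over 0.1 for every pair of treatments: it was -0.108 to -0.030 for DMSO with the other treatments and 0.138 to 0.214 among those. Over the 40 members alone it was -0.294 for DMSO with GSI and 0.162 to 0.756 for the other pairs. With a replicate block 1 member was called for GSI against DMSO (NDRG1), 1 for the combination against dTAG-13 and 1 for averaged dTAG-13 (SLC2A3 in both), and 5 for averaged GSI, which were SLC2A3 (0.44, adjusted p = 0.00114), NDRG1 (0.34, adjusted p = 0.00359), VHL (-0.24, adjusted p = 0.0319), HIF1A (0.19, adjusted p = 0.034) and HK2 (-0.22, adjusted p = 0.0395), so that HIF1A and VHL passed the test with the block. Without a filter on low counts 2 were called for GSI against DMSO, 1 for the combination against dTAG-13, 1 for averaged dTAG-13 and 3 for averaged GSI. For the replicate number 17 were called lower in this setting (0.382% of all genes). The GC and length offset gave 1 for GSI against DMSO (VHL), 2 for averaged GSI and 6 for the number (0.173% of all genes lower). DESeq2 gave 8 for the number (0.296% of the genes given an adjusted p). Drug counts with the block, without the filter and with the offset are given without the share of all genes called in the same setting. They therefore do not set the members apart from other genes. Leaving out 1 library gave 0 to 1 for the combination against dTAG-13, 0 to 1 for averaged dTAG-13, 0 to 3 for averaged GSI and 0 to 24 for the number, which was 24 without both DMSO libraries. EGLN1 for GSI against DMSO, 0.016 as reported, reversed to -0.026 with the offset, -0.12 without DMSO replicate 2, to -0.21 without GSI replicate 1, and leaving out 1 library gave -0.21 to 0.21; the cause was not tested.

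Over all genes, calls ran from 32 to 660 for GSI against DMSO (272 as reported), 0 to 71 for dTAG-13 (3), 38 to 532 for the combination (205), 43 to 563 for the combination against dTAG-13 (189), 3 to 59 for the combination against GSI (9), 14 to 165 and 342 to 1822 for the averaged dTAG-13 (78) and GSI (1086) effects, and 0 to 2671 for the number (0). With 2 libraries a group, single libraries moved many of the uncalled drug differences by over 1.5 times, such as that of BNIP3 for dTAG-13 (0.031 to 0.34 over all alternatives) and of HK2 for GSI (-0.50 to -0.047), and counts of MIF, P4HA2 and CA9 were too low for a precise value.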
